A study of Mus musculus with 27 samples.

Results

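The ventricles of mice labelled MBNL1 loss-of-function (KO), 14 days after knockout, were compared with control ventricles of the same age and time label. The comparison holds 7 of the 27 libraries of the series. They are the 4 libraries labelled KO with numbers 6 to 9, called KO libraries here, and the 3 controls with numbers 5 to 7. All 7 came from postnatal day 60. They were taken by their labels alone, and gene expression was measured by RNA sequencing of total RNA from ventricle tissue, given as read counts per gene. The labels give no strain, no knockout allele, no Cre driver or inducing agent, no genotype of the controls beyond the word control, and no sex. They do not state that the libraries came from separate animals or whether animals were pooled, so p-values here describe the spread among libraries, part of which may be technical. By their Xist and Y-linked counts, 2 KO libraries were female and 2 male, against 1 female and 2 male control libraries.

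MBNL1 is a zinc finger protein that binds RNA. It sets the choice of exons in many muscle transcripts and acts on the location and stability of mRNAs. Its activity rises as heart muscle matures after birth while that of the CELF proteins falls, which moves splicing from fetal to adult forms, and its capture by repeat RNA is a known feature of myotonic dystrophy. Counts per gene do not resolve exons, so the values here are levels of whole genes and splicing was not measured.

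Total counts ran from 21929347 to 24356416 per library. Levels are given in CPM, counts-per-million on the TMM scale of the 7 libraries, and a count of 0 allowed up to 0.119 CPM in the KO libraries and 0.165 CPM in the controls (3 counts, counting error only). The ventricle label was checked against marker genes. Myh6, the adult cardiac myosin heavy chain, held 16740, 16610, 14450 and 12960 CPM in the KO libraries, against 23170, 26900 and 24520 CPM in the controls. Myh4, a fast skeletal myosin, had no count in any of the 7 libraries, and Bmp10, an atrial gene, was at 0.0953 CPM or less. Mitochondrially encoded genes made up 21.6, 18.9, 17.4 and 19.6% of the counts in the KO libraries, against 29.6, 29.5 and 26.3% in the controls, so the groups did not overlap. The means were 19.4% ± 1.74 (SD, n = 4) and 28.5% ± 1.85 (n = 3), a difference of -9.12 points (exact permutation p = 0.0571, two-sided, which 4 against 3 libraries cannot go below). KO library 8 and control library 7 stood apart from the others of their groups in the clock genes and in further genes given below.

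Mbnl1 itself (ENSMUSG00000027763, GRCm38 chr3:60472830-60629750, plus strand) was not lost from the counts of the KO libraries. It held 119, 118, 101 and 106 CPM in the KO libraries, against 149, 139 and 133 CPM in the controls. Every KO library lay below every control, but by a small margin. The log2 fold change was -0.34 ± 0.09 (adjusted p = 0.012, edgeR quasi-likelihood, Benjamini-Hochberg over all genes tested). This call was lost without control library 5 (-0.30) and with all 27 libraries in one fit (-0.33, adjusted p = 0.117, edgeR), and with total count scaling the difference turned to 0.03. Which exons were deleted is not given in the sources used here, so the gene total cannot show whether a functional protein was made, and the libraries are called by their label. The paralog Mbnl2 held 174, 166, 142 and 154 CPM in the KO libraries, against 283, 259 and 204 CPM in the controls. It was lower in each KO library than in any control, with a log2 fold change of -0.64 ± 0.12 (adjusted p = 0.0016, edgeR quasi-likelihood). Mbnl3, the paralog of early development, held 0.756, 0.794, 0.288 and 0.911 CPM in the KO libraries, against 0.322, 0.385 and 0.143 CPM in the controls. The groups overlapped and the gene was not called (log2 fold change 1.28 ± 0.49, adjusted p = 0.057). Mbnl3 was called higher under several other settings, however. Among them were leaving out KO library 8 (1.55), the lowest of the KO libraries in this gene, sex as a covariate (1.39) and total count scaling (1.66). Whether Mbnl3 is called thus depends on the setting, at levels below 1 CPM in all 7 libraries.

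Several other regulators of muscle splicing were lower in the KO libraries. Rbfox1, which acts together with MBNL proteins on many muscle exons, held 8.47, 7.22, 9.36 and 7.94 CPM in the KO libraries, against 51.6, 63.6 and 60.3 CPM in the controls. These groups lay far apart, with a log2 fold change of -2.83 ± 0.12 (adjusted p = 2.7e-07, edgeR quasi-likelihood). Rbm20, which sets titin splicing, held 97.1, 104, 153 and 106 CPM in the KO libraries, against 193, 207 and 240.3 CPM in the controls, a log2 fold change of -0.89 ± 0.15. The KO library nearest to the controls was library 8. Rbm38, which binds muscle and p53 pathway mRNAs, held 129, 121, 178 and 141 CPM in the KO libraries, against 274, 282 and 296 CPM in the controls, again without overlap. Rbm24 held 248, 224, 224 and 218 CPM in the KO libraries, against 334, 328 and 324 CPM in the controls, with a log2 fold change of -0.53 ± 0.08, which was no longer called with total count scaling (-0.15). Ptbp1, a repressor of muscle exons that is lost as muscle matures, held 80, 69.7, 51.2 and 66.3 CPM in the KO libraries, against 47.9, 52.6 and 53.4 CPM in the controls. Its log2 fold change of 0.38 ± 0.14 passed the test (adjusted p = 0.044), but the groups overlapped and the call was lost when any library other than KO library 8 was left out (0.30 to 0.41). Of the CELF proteins, Celf1 (log2 fold change 0.15 ± 0.09) and Celf2 (-0.11 ± 0.11, and 0.26 with total count scaling) were not called. Of 27 splicing regulators tested outside the MBNL and CELF families, 5 were higher and 5 lower, which is near or below the share of all genes (21.8% called higher and 22.4% lower), and 2 were higher without KO library 6, 7 or 9 or control library 6 or 7. Their median log2 fold change was -0.10, against 0.01 over all genes tested, and 0.29 with total count scaling, under which all genes had a median of 0.39.

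**Figure D1:**
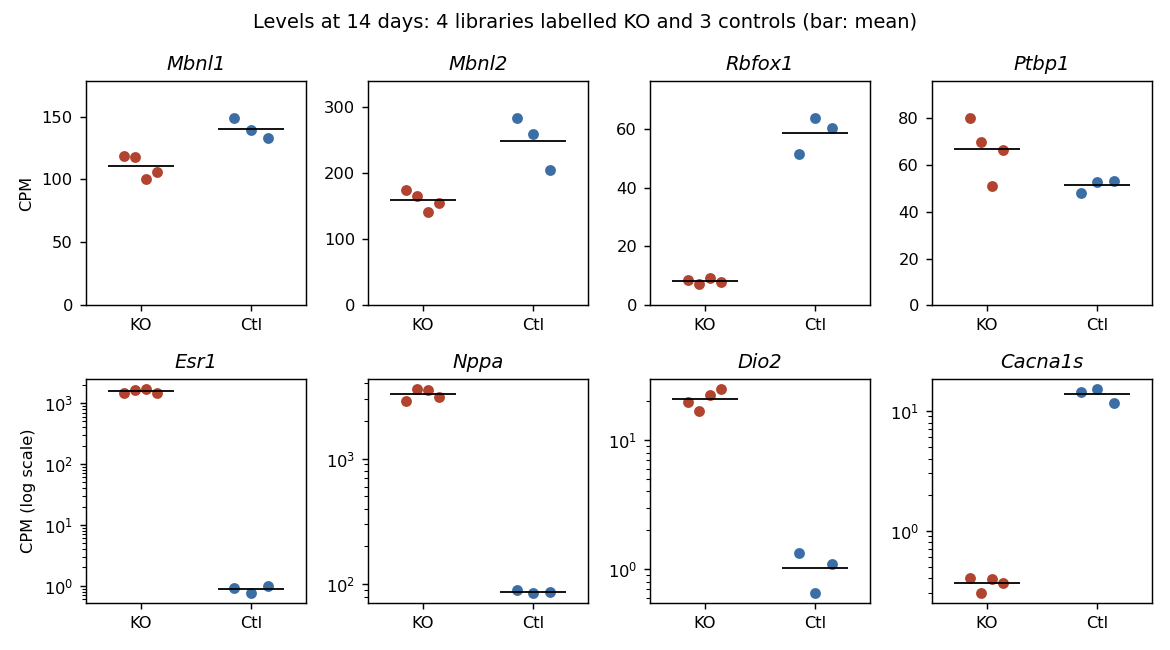
Levels of 8 genes in each of the 7 libraries, in CPM, with the 4 KO libraries to the left of the 3 controls in each panel. The upper row has a linear axis from 0 and the lower row a log axis, and the bar is the group mean. Mbnl1 differed little between the groups, with a sign that turns to 0.03 on the log2 scale with total count scaling, and Mbnl2 was lower, while Esr1 was at 1441 CPM or more in every KO library and at 1 CPM or less in the controls.

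The gene with the largest rise was Esr1 (ENSMUSG00000019768, GRCm38 chr10:4611593-5005614, plus strand), which encodes estrogen receptor alpha. It held 1468, 1614, 1709 and 1441 CPM in the KO libraries, against 0.913, 0.769 and 1 CPM in the controls. The log2 fold change was 10.75 ± 0.16 (adjusted p = 1.4e-10, edgeR quasi-likelihood). A mutated ligand-binding domain of this receptor is, as background, a part of the Cre proteins that are switched on by tamoxifen. The labels name no such protein, and whether these reads come from the receptor gene of the mouse or from a transgene was not tested. Since all 4 KO libraries held the reads and none of the controls did beyond 1 CPM, what carries these reads and the loss of MBNL1 cannot be told apart in any comparison below. The estrogen target Pgr, the progesterone receptor, was at 0.11 CPM or less in all 7 libraries and was not tested. Greb1, another estrogen target, held 1.39, 1.47, 1.15 and 1.24 CPM in the KO libraries, against 0.483, 0.769 and 0.524 CPM in the controls, with a log2 fold change of 1.15 ± 0.27 (adjusted p = 0.0064). All 4 KO libraries were above the controls in Greb1, at a low level.

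Among other hormone genes, Dio2 was higher and Thrb lower. Dio2, the deiodinase that makes active thyroid hormone within cells, held 19.6, 16.8, 22.3 and 24.9 CPM in the KO libraries, against 1.34, 0.659 and 1.1 CPM in the controls. The groups did not overlap, and the log2 fold change was 4.33 ± 0.23 (adjusted p = 7.7e-07, edgeR quasi-likelihood). Thrb, a thyroid hormone receptor, held 9.35, 10.4, 11.2 and 9.95 CPM in the KO libraries, against 20.7, 18.3 and 18.1 CPM in the controls, which was lower in every KO library (log2 fold change -0.90 ± 0.10). Of 20 tested nuclear hormone receptors and hormone enzymes, 5 were higher and 4 lower, close to the share over all genes.

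Of 14976 genes tested, 6623 (44.2%) were called at an adjusted p under 0.05, 3272 higher and 3351 lower in the KO libraries. Of these, 2333 (15.6%) differed by at least 2-fold, 1256 higher and 1077 lower. A total of 3571 genes (23.8%) had every KO library above every control, and 3618 (24.2%) every KO library below. The split between higher and lower genes depends on the scaling. With total count scaling the median of all genes was 0.39 and 81.9% of the called genes were higher, against 49.4% with TMM. Changes are therefore relative to the TMM scale. The shares over all genes tested, 21.8% called higher and 22.4% called lower, are to be set beside every list count in this report. Because whole tissue was measured, fewer cells of a type and less RNA per cell cannot be told apart.

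**Figure D2:**
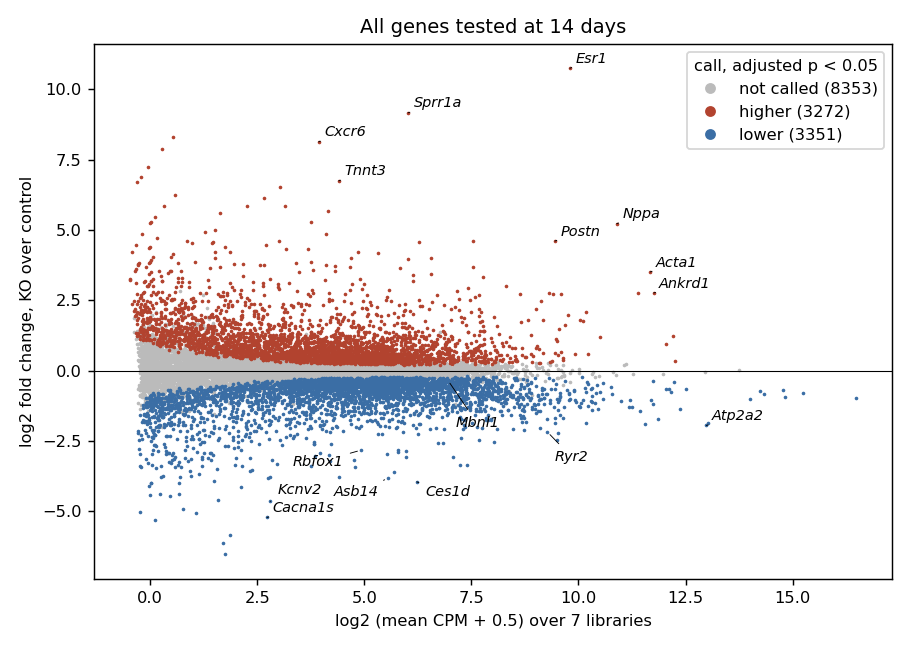
Log2 fold change of KO over control libraries against the mean level of each of the 14976 genes tested (log2 of mean CPM plus 0.5). Genes called higher are red (3272), genes called lower blue (3351) and the others grey, and the genes named on the plot are described in the text.

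Leaving Esr1 aside, the largest rises among genes of at least 5 CPM on average with no overlap between the groups came from genes that the control ventricles held near the limit of detection. Sprr1a, a small cornified envelope protein that is also induced in stressed heart muscle, held 127, 104, 49.9 and 171 CPM in the KO libraries, against 0.107, 0.33 and 0.143 CPM in the controls (log2 fold change 9.17 ± 0.60). Cxcr6, a chemokine receptor of T and NK cells, held 30.3, 27.8, 16.5 and 28.6 CPM in the KO libraries, against 0.0537, 0.0549 and 0.143 CPM in the controls. Controls 5 and 6 had fewer than 3 counts of it, so its log2 fold change of 8.13 ± 0.39 depends on the prior count of the fit, as do those of other genes with control values this low. Dusp26, a phosphatase, held 9.51, 14, 7.13 and 9.66 CPM in the KO libraries, against 0, 0.22 and 0.191 CPM in the controls. The long noncoding RNA gene 4833412C05Rik rose by 6.53 ± 0.30 and Krt18, a keratin of simple epithelia, by 5.69 ± 0.28 on the log2 scale. Tnnt3 and Cthrc1 complete the list of the 8 largest rises and are described below with the contractile and matrix genes. All values of these genes in the KO libraries were above all control values.

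The largest falls under the same conditions included channel, lipid and ubiquitin ligase genes. Cacna1s, the pore of the skeletal muscle calcium channel, held 0.398, 0.302, 0.396 and 0.364 CPM in the KO libraries, against 14.4, 15.3 and 11.6 CPM in the controls (log2 fold change -5.22 ± 0.18, adjusted p = 1.7e-07, edgeR quasi-likelihood). Gene Gm37759 overlaps part of its exons, so that a small part of its reads is uncertain. Kcnv2, a silent potassium channel subunit, held 0.477, 0.567, 0.504 and 0.729 CPM in the KO libraries, against 13.2, 16 and 14 CPM in the controls (log2 fold change -4.64 ± 0.18). Ces1d, a carboxylesterase that hydrolyses lipids, held 14.7, 11.2, 10.6 and 4.81 CPM in the KO libraries, against 158, 149 and 172 CPM in the controls (log2 fold change -3.95 ± 0.28). In each of these 3 genes all KO values lay far below all control values.

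Among contractile genes, fetal and skeletal isoforms were higher in the KO libraries and most isoforms of the adult ventricle lower. Of 20 fetal, atrial and skeletal isoforms, 16 passed the filter on low counts, which a gene could pass through the KO libraries alone. Of these 16, 12 were higher and 1 lower, with a median log2 fold change of 1.15. Tnni1, the troponin I of slow skeletal muscle and the fetal heart, held 7.96, 12.6, 21.2 and 16.2 CPM in the KO libraries, against 0.269, 0.44 and 1.38 CPM in the controls. Its adult partner Tnni3, cardiac troponin I, held 1689, 1535, 1502 and 1684 CPM in the KO libraries, against 4274, 4659 and 4113 CPM in the controls. Neither gene overlapped between the groups, and their log2 fold changes were 4.32 ± 0.49 and -1.44 ± 0.09. Tnnt3, fast skeletal troponin T, held 39.9, 47.8, 38.9 and 17.1 CPM in the KO libraries, against 0.0537, 0.494 and 0.429 CPM in the controls (log2 fold change 6.75 ± 0.52, adjusted p = 5.5e-06, edgeR quasi-likelihood). Acta1, skeletal actin, held 7398, 5557, 5383 and 3151 CPM in the KO libraries, against 643, 411 and 359 CPM in the controls, a log2 fold change of 3.51 ± 0.31. KO library 9 had the lowest level of the 4 in both Tnnt3 and Acta1 and was still above every control. Myh7, the slow myosin of the fetal mouse ventricle, held 1805, 1613, 1485 and 1376 CPM in the KO libraries, against 432, 389 and 566 CPM in the controls, with a log2 fold change of 1.76 ± 0.15.

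Adult isoforms fell by less. Of 10 tested, 6 were lower and 1 higher, with a median of -0.52, and 5 were lower and 4 higher with total count scaling. Myl2, the regulatory light chain of the ventricle, held 5203, 4407, 4695 and 4482 CPM in the KO libraries, against 7485, 7514 and 7125 CPM in the controls, with a log2 fold change of -0.65 ± 0.09. Mylk3, the kinase that phosphorylates this light chain, held 342, 397, 489 and 357 CPM in the KO libraries, against 746, 727 and 674 CPM in the controls (-0.85 ± 0.12), and Myh6 changed by -0.71 ± 0.11. These genes were lower in every KO library than in any control.

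Ratios of fetal to adult isoforms within a library do not depend on scaling. They were taken as the log2 of the ratio of counts per kilobase of exon. Myh7 over Myh6 was -3.57, -3.72, -3.64 and -3.59 in the KO libraries, against -6.10, -6.47 and -5.79 in the controls, and the group means differed by 2.49. Tnni1 over Tnni3 averaged -7.68 ± 0.66 in the KO libraries (SD, n = 4) and -13.8 ± 1.26 in the controls (n = 3), a difference of 6.08. Acta1 over Actc1, the cardiac actin, averaged -1.35 ± 0.43 in the KO libraries and -4.81 ± 0.47 in the controls, a difference of 3.47. The groups did not overlap in these 3 pairs (exact permutation p = 0.0571 for each, the smallest possible, and 0.0762 adjusted over 4 pairs). The adult form still made up more of the pair in each, since all values were below 0. Myl7 over Myl2, the atrial over the ventricular light chain, averaged -6.27 ± 0.80 in the KO libraries and -6.96 ± 0.70 in the controls, with overlap (exact permutation p = 0.343, adjusted 0.343). Myl7 held 13, 15.4, 41.2 and 13.8 CPM in the KO libraries, against 17.7, 29.9 and 10.8 CPM in the controls. KO library 8 and control library 6 were the highest of their groups, and the atrial gene Bmp10 was near 0 in all.

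Structural proteins of the sarcomere moved in both directions. Of 31 titin, M-band and Z-disc genes, 13 were higher and 9 lower, beside shares over all genes of 21.8% and 22.4%. Their median was -0.11, and 0.26 with total count scaling. Ttn, which encodes the spring protein titin, held 1267, 1455, 2175 and 1069 CPM in the KO libraries, against 3052, 3759 and 4233 CPM in the controls (log2 fold change -1.30 ± 0.21). Ankrd1, a stretch-responsive protein bound to titin, held 6260, 5497, 5323 and 4740 CPM in the KO libraries, against 941, 855 and 612 CPM in the controls (2.76 ± 0.16, adjusted p = 1.2e-06, edgeR quasi-likelihood). Pdlim3, an adaptor of the Z-disc, rose by 2.45 ± 0.15 on the log2 scale. Xirp1 and Xirp2, actin-binding proteins of the cell junctions of heart muscle, rose by 1.61 ± 0.27 and 1.11 ± 0.25. The groups did not overlap in any of these 5 genes. At the intercalated disc, which joins heart muscle cells, 11 of 20 genes were lower and 3 higher (median -0.37, and 0.01 with total count scaling). Fgf13, a modulator of sodium channels, held 16.9, 13.3, 15.9 and 14.5 CPM in the KO libraries, against 64.7, 71.2 and 80.3 CPM in the controls (-2.25 ± 0.11), and Ctnna3, a catenin of the disc, fell by 1.36 ± 0.15. Gja1, the main gap junction protein of the ventricle, held 113, 111, 174 and 106 CPM in the KO libraries, against 193, 249.5 and 224 CPM in the controls. KO library 8 was nearest to the controls, and the log2 fold change of -0.82 ± 0.17 was not called with total count scaling (-0.44). Pkp2, a desmosome protein, was not called (-0.13 ± 0.08, and 0.24 with total count scaling).

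Promoter sequences of 5 muscle genes named in this report are shown because short motifs of known muscle regulators lie in them. All 5 were called, but Trim63 by less than 2-fold. They are RefSeq sequences on GRCm38.p6, running from 10 bases before the leftmost match to the base before the annotated start, 5′ to 3′ on the strand of the gene. Capitals mark matches on either strand to the MCAT element of TEAD factors, with the letters CATTCC, the element of GATA factors, with the letters AGATAA, the element of MEF2, with the letters TATTTATA, and the CArG box of serum response factor. None of these matches overlaps another. The genes were chosen after the matches were seen. Acta1 lies at chr8:123894776-123894858 on the minus strand, Nppb at chr4:147985785-147985899 on the plus strand, Ankrd1 at chr19:36119845-36120064 on the minus strand, Asb14 at chr14:26894560-26894613 on the plus strand and Trim63 at chr4:134315079-134315119 on the plus strand.
Acta1: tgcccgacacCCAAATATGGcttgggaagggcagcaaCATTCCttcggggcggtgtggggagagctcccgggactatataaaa
Nppb: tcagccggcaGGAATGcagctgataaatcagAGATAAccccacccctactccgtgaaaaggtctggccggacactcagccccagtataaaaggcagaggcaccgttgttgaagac
Ankrd1: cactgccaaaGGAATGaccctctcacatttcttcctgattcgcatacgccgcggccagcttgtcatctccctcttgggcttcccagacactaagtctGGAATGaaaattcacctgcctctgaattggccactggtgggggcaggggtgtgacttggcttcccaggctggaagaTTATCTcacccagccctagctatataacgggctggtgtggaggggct
Asb14: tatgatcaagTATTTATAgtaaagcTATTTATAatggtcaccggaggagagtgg
Trim63: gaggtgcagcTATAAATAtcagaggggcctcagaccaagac
Acta1, Nppb and Ankrd1, which were higher in the KO libraries, hold MCAT matches at 46, 105 and at both 210 and 123 bases upstream. Asb14 and Trim63, which were lower, hold MEF2 matches, a pair at 44 and 29 bases in Asb14 and a match at 31 bases in Trim63. Over the 250 upstream bases, MCAT was found in 13.4% of 1145 windows of genes at least 2-fold higher, 12.5% of 922 windows of genes at least 2-fold lower and 11.1% of 14077 windows of all genes tested. For MEF2 these shares were 1.31%, 1.63% and 1.0%, and for the GATA element 6.90%, 9.0% and 6.02%. For AP-1, searched as TGANTCA, they were 7.60%, 5.10% and 4.62%. In the 21 windows of fetal, atrial and skeletal contractile isoforms, MCAT was found in 28.6% (6 windows) and the CArG box in 14.3% (3 windows). The CArG box was in 1.18% of all tested windows. MCAT was also found in 18.75% of 16 windows of interstitial collagens and 16.1% of 31 windows of fatty acid genes. In 15 windows of calcium cycling genes its share was 0%. The share of the CArG box was 0% in each of these other lists. A match is a description of the letters, not of binding.

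Natriuretic peptides, the hormones of a loaded heart, were among the most raised signals. Nppa, the atrial natriuretic peptide, held 2850, 3586, 3513 and 3102 CPM in the KO libraries, against 89.4, 85.8 and 86.2 CPM in the controls, with a log2 fold change of 5.23 ± 0.12 (adjusted p = 7.9e-09, edgeR quasi-likelihood). The antisense gene Gm13054 overlaps 61.5% of its exon length and no strand setting is stated, so the reads of the pair cannot be told apart. Nppb, brain natriuretic peptide, held 1288, 955, 856 and 910.3 CPM in the KO libraries, against 170.3, 172 and 103 CPM in the controls (2.76 ± 0.21) and is not overlapped by another gene. All KO libraries were far above the controls in both. The clearance receptor Npr3 was not called by edgeR (0.46 ± 0.18, adjusted p = 0.058), but DESeq2 called it higher (0.45, adjusted p = 0.037), and so did edgeR without KO library 8 (0.59, adjusted p = 0.0034), with sex as a covariate (0.52) and against the controls of 7 days (0.57). Of 23 natriuretic, adrenergic, angiotensin and endothelin genes, 6 were higher and 8 lower (median near 0, and 0.38 with total count scaling). Over all genes tested, 21.8% were higher and 22.4% lower.

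Most genes of potassium channels were lower. Of 24 potassium channel genes tested, 16 were lower and 3 higher, with a median log2 fold change of -0.87, against 0.01 over all genes. Kcnip2, the accessory subunit of the transient outward current, held 29, 21.2, 40 and 31.5 CPM in the KO libraries, against 300.4, 275 and 348 CPM in the controls, a log2 fold change of -3.34 ± 0.19 (adjusted p = 9.7e-07, edgeR quasi-likelihood). Kcnd2, the pore of that channel, held 7.8, 8.39, 3.53 and 7.51 CPM in the KO libraries, against 31, 31.7 and 27.7 CPM in the controls (-2.15 ± 0.23), with KO library 8 the lowest. Kcnj2, the inward rectifier that holds the resting potential, held 12.8, 17.1, 11.9 and 11.5 CPM in the KO libraries, against 37.7, 37 and 25.5 CPM in the controls (-1.32 ± 0.17). None of these overlapped between the groups. Of 28 sodium, calcium and pacemaker channels and exchangers, 12 were lower and 7 higher (median -0.10, and 0.28 with total count scaling). Over all genes 22.4% were lower and 21.8% higher, so the part called higher was near the share of all genes. Cacna1c, the pore of the cardiac L-type calcium channel, held 58.2, 46.8, 96.8 and 63.3 CPM in the KO libraries, against 253, 277 and 305 CPM in the controls, a log2 fold change of -2.07 ± 0.21. Scn4b, an accessory sodium channel subunit, held 3.78, 3.4, 6.01 and 2.4 CPM in the KO libraries, against 37.5, 34.1 and 36.8 CPM in the controls (-3.21 ± 0.23). Hcn4, a pacemaker channel, was lower (-0.83 ± 0.15). Cacna1h, a T-type channel of the fetal ventricle, held 1.23, 1.44, 13.5 and 12.2 CPM in the KO libraries, against 2.15, 9.18 and 10.6 CPM in the controls, so that low and high libraries occurred in both groups and it was not called.

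Atp2a2, Ryr2 and Pln, genes of calcium cycling by the sarcoplasmic reticulum, were lower. Of 21 genes tested, 10 were lower and 4 higher (median -0.50), beside shares over all genes of 22.4% and 21.8%. With total count scaling, however, 7 were lower and 9 higher (median -0.12). Atp2a2, the pump that returns calcium to the store, held 3664, 3385, 4061 and 3463 CPM in the KO libraries, against 13470, 14200 and 14490 CPM in the controls. The groups lay far apart, with a log2 fold change of -1.95 ± 0.09 (adjusted p = 5.2e-07, edgeR quasi-likelihood). Ryr2, the release channel, held 202, 216, 355 and 212 CPM in the KO libraries, against 1022, 1192 and 1138 CPM in the controls, with KO library 8 nearest to the controls (-2.18 ± 0.19). Pln, the inhibitor of the pump, held 264, 277, 329.8 and 288 CPM in the KO libraries, against 1382, 1276 and 1357 CPM in the controls (-2.21 ± 0.10), but genes on the other strand, Cep85l and Gm47644, overlap 64.7% of its exon length. The adrenergic receptor Adrb1 was lower (-0.63 ± 0.21, adjusted p = 0.031), with overlap between the groups, and was not called without KO library 6, 7 or 9 or control library 6 or 7 (-0.66 to -0.40), or with total count scaling (-0.26).

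Fatty acid genes had the lowest median of the 50 lists. Of 32 genes of fatty acid uptake and oxidation, 30 were lower and 0 higher, with a median log2 fold change of -1.61. Cd36, which takes up fatty acids, held 410.2, 415, 352 and 473 CPM in the KO libraries, against 1400, 1304 and 989 CPM in the controls (-1.58 ± 0.13). Acadm, the dehydrogenase of medium-chain fatty acids, held 305, 315, 323 and 296 CPM in the KO libraries, against 1062, 1057 and 914 CPM in the controls, a log2 fold change of -1.71 ± 0.09 (adjusted p = 6e-07, edgeR quasi-likelihood). Plin5, which coats lipid droplets beside mitochondria, fell by 2.27 ± 0.18, and Acot1, a thioesterase of acyl-CoA, by 3.18 ± 0.20. In all 4 the KO libraries stayed below the controls. Cpt1b, the muscle form of the carnitine transferase, had a log2 fold change of -1.10 ± 0.25 at 1.23 to 2.09 CPM in the KO libraries, against 2.53 to 4.38 CPM in the controls. Gene Gm44502 on the same strand covers 81.4% of its exon length, so this value is uncertain. The liver form Cpt1a was not called (0.20 ± 0.12).

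Most regulators of these genes were lower too. Of 20 genes of the PPAR, ERR and PGC-1 system, 14 were lower and 0 higher (median -0.69). Ppara, the nuclear receptor that drives fatty acid genes, held 10.2, 11.2, 10.4 and 10.9 CPM in the KO libraries, against 30, 30.4 and 31.8 CPM in the controls (-1.53 ± 0.09). Its partner Rxrg held 18.4, 20, 30 and 23.7 CPM in the KO libraries, against 83.6, 83.4 and 73.5 CPM in the controls (-1.80 ± 0.15). Ppargc1a, the coactivator of mitochondrial genes, held 98.6, 53.7, 53 and 72.5 CPM in the KO libraries, against 584, 355 and 215 CPM in the controls. Its control values spread most, yet the groups did not overlap (-2.47 ± 0.31, adjusted p = 0.00014). Esrrg, an estrogen-related receptor, fell by 0.90 ± 0.11. Of 25 genes for the breakdown of ketone bodies and branched-chain amino acids, 23 were lower and 1 higher (median -1.04). Oxct1, which activates ketone bodies, held 546, 562, 459.8 and 487 CPM in the KO libraries, against 1106, 1115 and 947 CPM in the controls (-1.04 ± 0.10). Bckdhb, a subunit of the branched-chain ketoacid dehydrogenase, fell by 1.81 ± 0.08, and Ppm1k, the phosphatase that switches this enzyme on, by 1.89 ± 0.13.

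Glucose genes moved both ways. Of 38 tested, 21 were lower and 11 higher, beside shares over all genes of 22.4% and 21.8%. Their median was -0.32, and 0.06 with total count scaling. Slc2a4, the insulin-dependent glucose transporter, held 245, 258, 257 and 224 CPM in the KO libraries, against 607, 642 and 666 CPM in the controls (-1.37 ± 0.08, adjusted p = 1.4e-06, edgeR quasi-likelihood). Pfkfb1, which sets the level of an activator of glycolysis, held 0.835, 1.47, 2.34 and 1.42 CPM in the KO libraries, against 9.99, 13.3 and 22.1 CPM in the controls (-3.31 ± 0.33). Pdk3, a kinase that shuts off pyruvate oxidation, held 16.6, 20.5, 23.9 and 23.6 CPM in the KO libraries, against 2.47, 2.03 and 4 CPM in the controls, a log2 fold change of 2.88 ± 0.23. The transporter Slc2a1 had a log2 fold change of 0.80 ± 0.24 with overlap, and its call was lost without KO library 6 or control library 5 or 6 (0.59 to 0.74). Of 21 creatine, NAD and oxygen store genes, 11 were lower and 5 higher (median -0.44), the part called higher being near the share of all genes. Ckm, muscle creatine kinase, held 1068, 928, 886 and 829.7 CPM in the KO libraries, against 1737, 1795 and 1690 CPM in the controls (-0.91 ± 0.10), and Mb, myoglobin, 3795, 3192, 2642 and 3001 CPM in the KO libraries, against 8507, 8244 and 7792 CPM in the controls (-1.37 ± 0.12), of whose exon length 31.9% is overlapped by genes on the other strand. Ckb, the brain form of creatine kinase, rose by 0.86 ± 0.10. In NAD synthesis the main enzyme Nampt held 87, 84.2, 59.9 and 62.2 CPM in the KO libraries, against 307, 289.6 and 236 CPM in the controls (-1.92 ± 0.15), and Nmrk2, the kinase of the alternative route from nicotinamide riboside, held 29.4, 20.9, 27.1 and 31.3 CPM in the KO libraries, against 4.24, 5.6 and 4.91 CPM in the controls (2.47 ± 0.17). These enzymes of the same product thus differed in opposite directions, without overlap between the groups.

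Stress genes did not move as a block. Their counts stand beside shares over all genes of 21.8% higher and 22.4% lower. Of 23 genes of the integrated stress response, 13 were higher and 3 lower (median 0.50). Gdf15, a secreted stress signal, held 14.4, 9.94, 8.1 and 15.7 CPM in the KO libraries, against 3.17, 3.02 and 1.29 CPM in the controls (2.28 ± 0.33). Nupr1, a nuclear stress protein, held 17.5, 18.8, 13.8 and 15.7 CPM in the KO libraries, against 4.19, 4.12 and 4 CPM in the controls. Atf4, the central factor of the response, rose by 0.50 ± 0.12 on the log2 scale. Of 22 chaperones of the endoplasmic reticulum, 2 were higher and 6 lower (median -0.18, and 0.19 with total count scaling), and 5 were higher without KO library 8. Hspa5, the main chaperone of that compartment, held 241, 207, 157 and 234 CPM in the KO libraries, against 419.7, 425 and 328 CPM in the controls, so it was lower in every KO library (-0.90 ± 0.15). Herpud1, a protein of its degradation route, fell by 1.41 ± 0.13. Of 22 heat shock genes, 9 were higher and 7 lower. Hspb1, a small heat shock protein, held 951, 509, 555 and 507 CPM in the KO libraries, against 279.8, 267 and 230.4 CPM in the controls (1.28 ± 0.22), with KO library 6 apart from the rest, while the mitochondrial chaperonin Hspd1 fell by 0.98 ± 0.09. Of 25 antioxidant genes, 11 were higher and 10 lower, with a median near 0 whose sign turned without KO library 8 or 9 or control library 5 or 7 (0.01 to 0.02) and with total count scaling (0.35). Gpx3, a secreted peroxidase, held 1372, 1304, 1245 and 1204 CPM in the KO libraries, against 369.8, 344 and 252 CPM in the controls (1.99 ± 0.13). Hmox1, which breaks down heme, rose by 1.97 ± 0.24, and Gstk1, a mitochondrial and peroxisomal transferase, fell by 2.01 ± 0.09. Of 24 p53 targets, 6 were higher and 6 lower, near the background shares. These counts were 15 higher and 1 lower with total count scaling, and 11 higher and 7 lower with all 7 controls of day 60. Phlda3 rose by 1.77 ± 0.19, and Cdkn1a, which halts the cell cycle, was not called (0.40 ± 0.48, adjusted p = 0.52).

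Most muscle ubiquitin ligases, which mark muscle proteins for breakdown, were lower. Of 20 tested, 14 were lower and 1 higher (median -0.84). Asb14, a substrate adaptor of muscle ligases, held 7.72, 4.65, 10.6 and 4.96 CPM in the KO libraries, against 97.2, 101 and 98.7 CPM in the controls (-3.83 ± 0.24, adjusted p = 1.6e-06, edgeR quasi-likelihood). Asb15, of the same family, held 8, 6.43, 14.1 and 7.18 CPM in the KO libraries, against 104, 118 and 103 CPM in the controls (-3.60 ± 0.23). In both, KO library 8 was the highest of the KO libraries and still far below the controls. Trim63, the ligase MuRF1 of muscle wasting, held 109, 113, 105 and 119 CPM in the KO libraries, against 218, 232 and 152 CPM in the controls (-0.84 ± 0.13). Fbxo32, another such ligase, was not called (-0.44 ± 0.20). It was called lower without control library 7 (-0.66), against the controls of 7 days (-0.62), with all 7 controls of day 60 (-0.53) and without the low-count filter (-0.42).

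Collagens of the interstitial matrix were higher. All 19 interstitial collagens tested were higher (19 higher and 0 lower, median 2.20). Col1a1, the main chain of type I collagen, held 801, 653, 1058 and 959 CPM in the KO libraries, against 115, 121 and 229 CPM in the controls (2.48 ± 0.26). Col3a1, of type III collagen, held 1292, 1219, 955 and 1387 CPM in the KO libraries, against 139.6, 154 and 251 CPM in the controls (2.74 ± 0.22). Col12a1, which sits on collagen fibrils, held 53.7, 40, 39.5 and 58.4 CPM in the KO libraries, against 2.74, 3.08 and 2 CPM in the controls, a log2 fold change of 4.20 ± 0.21 (adjusted p = 6e-07, edgeR quasi-likelihood). Col8a1 and Col8a2, the short-chain collagens, rose by 3.68 ± 0.14 and 3.87 ± 0.26. Every KO library was above every control in these 5 collagens. Of 19 basement membrane genes, 10 were higher and 2 lower (median 0.49). Col4a1, its main collagen, held 859, 891, 849 and 1092 CPM in the KO libraries, against 435, 450 and 459 CPM in the controls (1.04 ± 0.10), whereas the laminin chains Lama2 (0.10 ± 0.10) and Lamb1 (-0.17 ± 0.10) were not called and Lamb3 fell by 2.54 ± 0.19.

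Most genes of proteins that act on cells from within the matrix were higher as well. Of 27 matricellular and small proteoglycan genes, 24 were higher and 1 lower, with a median of 2.09. Postn, periostin of activated fibroblasts, held 1542, 1111, 696 and 1403 CPM in the KO libraries, against 48.2, 47.5 and 50.1 CPM in the controls (4.61 ± 0.27), with KO library 8 the lowest of its group. Cthrc1, a secreted protein of such fibroblasts, held 15.5, 14.9, 12.2 and 15.4 CPM in the KO libraries, against 0.322, 0.22 and 0.191 CPM in the controls (5.87 ± 0.22). Cilp, a cartilage matrix protein that is made by cardiac fibroblasts, held 297, 229, 387 and 350.2 CPM in the KO libraries, against 11.1, 15.7 and 11.9 CPM in the controls (4.61 ± 0.22), and Thbs4, a thrombospondin, rose by 3.64 ± 0.23. Dcn, a proteoglycan of resting fibroblasts, held 903, 976, 839 and 886 CPM in the KO libraries, against 772, 682 and 513 CPM in the controls, a smaller rise of 0.46 ± 0.13. Among 36 matrix enzymes and inhibitors, 21 were higher and 2 lower (median 0.84). Lox, which crosslinks collagen, held 118, 91.2, 112 and 109 CPM in the KO libraries, against 8.92, 7.8 and 3.91 CPM in the controls (3.98 ± 0.24), and Timp1, an inhibitor of matrix proteases, held 32.9, 26.5, 38.4 and 30.4 CPM in the KO libraries, against 2.15, 2.75 and 2.38 CPM in the controls (3.72 ± 0.17). Mmp2, a gelatinase, rose by 1.29 ± 0.10.

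Of 33 genes of the TGF-beta superfamily, 18 were higher and 4 lower (median 0.46). Among the ligands, Tgfb2 held 74.4, 59.6, 55.5 and 46.9 CPM in the KO libraries, against 11, 11.9 and 14.2 CPM in the controls (2.25 ± 0.17) and Tgfb1 76.7, 62.5, 82.3 and 67.7 CPM in the KO libraries, against 50.2, 49.9 and 57.5 CPM in the controls (0.46 ± 0.11). The rise of Tgfb2 was the larger of the pair, and no value overlapped in either gene. Gdf6, a ligand of the BMP branch, held 14, 10.1, 9.29 and 7.51 CPM in the KO libraries, against 0.43, 0.549 and 0.381 CPM in the controls (4.49 ± 0.29), and Inhba, a subunit of activin A, rose by 1.72 ± 0.30. Ltbp2, a latency protein of the matrix, held 117, 104, 174 and 128 CPM in the KO libraries, against 5.37, 6.92 and 4.14 CPM in the controls (4.58 ± 0.23). Il11, a fibrogenic cytokine, was at 0.597 CPM or less in all 7 libraries and was not tested. Fibroblast identity genes had a lower median than the collagens. Of 20, 10 were higher and 3 lower (median 0.46). Pdgfra, a receptor that marks fibroblasts, held 74.6, 86, 55.9 and 71.6 CPM in the KO libraries, against 44.4, 47.3 and 37.8 CPM in the controls (0.74 ± 0.14), and Tcf21, their lineage factor, 20.4, 15.8, 21.2 and 18.4 CPM in the KO libraries, against 9.4, 7.36 and 9.43 CPM in the controls (1.12 ± 0.14). Mfap4 and Mfap5, proteins of elastic microfibrils on the same list, rose by 3.33 ± 0.12 and 2.95 ± 0.11. Fap was not called (0.28 ± 0.20).

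**Figure D3:**
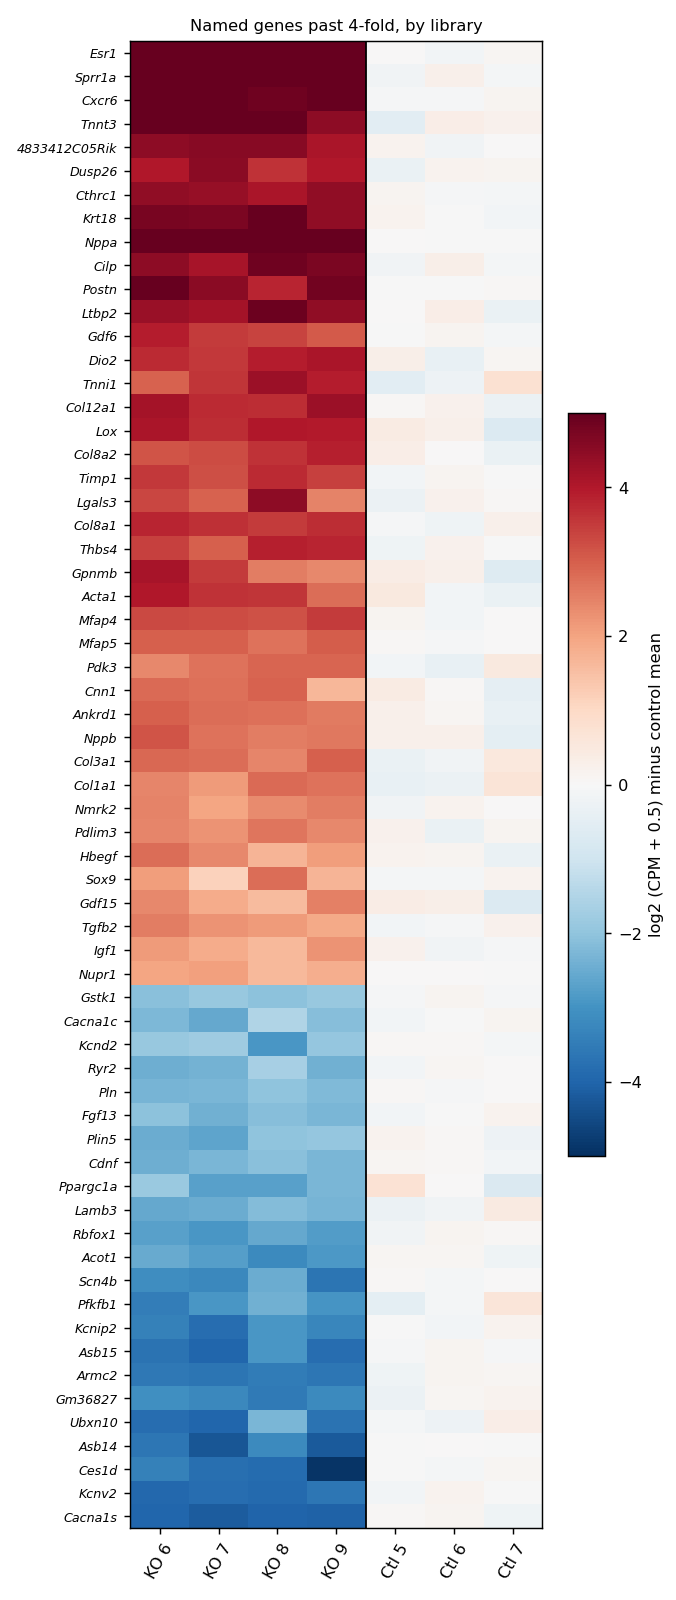
Log2 of CPM plus 0.5 in each library minus the mean of the 3 controls, for 63 named genes that were called, differed by at least 4-fold, averaged at least 5 CPM and did not overlap between the groups (40 higher, 23 lower). Columns are the 4 KO libraries and then the 3 controls, rows are ordered by fold change, and colours stop at 5 on the log2 scale. The 4 KO libraries share the direction of every gene shown, which the choice of genes fixes.

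Markers of recruited macrophages and monocytes were higher. Of 18 on the list, 16 passed the filter on low counts, which a gene could pass through the KO libraries alone. All 16 were called (16 higher and 0 lower, median 1.51). Without control library 7, 14 were higher, and against the controls of 7 days 13 were. The summed level of the list was 447.5 to 626.4 CPM in the KO libraries, against 206.1 to 310.9 CPM in the controls. Ccr2, the receptor that draws monocytes into tissue, held 4.65, 4.8, 4.29 and 3.68 CPM in the KO libraries, against 1.07, 0.879 and 1 CPM in the controls (2.14 ± 0.20). Lgals3, galectin-3 of activated macrophages, held 36.1, 27.4, 80.2 and 19.8 CPM in the KO libraries, against 2.42, 3.74 and 3.29 CPM in the controls (3.70 ± 0.49), with KO library 8 the highest. Trem2, a lipid receptor of tissue macrophages, held 8.59, 8.32, 8.97 and 6.85 CPM in the KO libraries, against 2.2, 2.09 and 2.48 CPM in the controls (1.85 ± 0.16, adjusted p = 1.2e-05, edgeR quasi-likelihood). The groups were apart in each. Of 10 markers of resident macrophages, 1 was higher and 1 lower, below the share over all genes in both directions, and 3 were higher without KO library 8. The list's median log2 fold change was 0.14, and near 0 against the controls of 7 days. The gene called lower was Timd4, a receptor for dying cells, which held 0.597, 1.25, 0.144 and 1.06 CPM in the KO libraries, against 2.2, 1.37 and 2.19 CPM in the controls, without overlap. Its log2 fold change was -1.34 ± 0.49 (adjusted p = 0.0497, edgeR quasi-likelihood), and the call was lost with total count scaling (-0.97) and without KO library 6 or 9 or any 1 control library (-1.54 to -1.23). Lyve1 (-0.43 ± 0.26) and Folr2 (0.06 ± 0.30), which mark that population, were not called, but Lyve1 was lower against the controls of 7 days (-0.77) and with all 7 controls of day 60 (-0.62). For Folr2, 63.1% of the exon length is overlapped on the other strand. Igf1, counted on that list but also made by other cells, held 55, 46, 38.5 and 59.5 CPM in the KO libraries, against 14.3, 10.8 and 11.7 CPM in the controls (2.02 ± 0.17).

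Of 10 MHC class II genes, 9 were higher and 0 lower (median 1.12). H2-Aa, a chain of the antigen-presenting molecule, held 151, 163, 119 and 140.3 CPM in the KO libraries, against 83.8, 60.8 and 36.1 CPM in the controls (1.25 ± 0.24), and Cd74, its invariant chain, 329.9, 321, 311 and 329.6 CPM in the KO libraries, against 188, 179.7 and 108 CPM in the controls (1.03 ± 0.17). Control library 7 was the lowest of the controls in both. T and NK cell genes were near the limit of detection. Cd3e, the defining T cell gene, held 0.0795, 0.151, 0.108 and 0.291 CPM in the KO libraries, against 0.107, 0.11 and 0.143 CPM in the controls, and was not tested, as was Ncr1 of NK cells at 0.199 CPM or less. Of the 18 genes of that list, 7 passed the filter on low counts, which a gene could pass through the KO libraries alone. Cd8a held 0.636, 0.756, 0.576 and 0.583 CPM in the KO libraries, against 0.107, 0.0549 and 0.0953 CPM in the controls (2.81 ± 0.42). Cxcr6, given above at 16.5 to 30.3 CPM in the KO libraries, was thus high in libraries in which Cd3e stayed at 0.291 CPM or less. Cd79a of B cells and Retnlg of neutrophils were below 0.6 CPM throughout, but other members of their lists were higher. Of 8 B cell markers, 4 passed the same filter, and of these 1 was higher and 0 lower, near the share over all genes. Of 11 neutrophil markers, 5 passed it, and of these 3 were higher and 0 lower. Against the controls of 7 days, 1 neutrophil marker was higher and 1 lower. Of 6 mast cell markers tested, 0 were higher and 0 lower by edgeR, and 2 were higher without KO library 8. Against the controls of 7 days, 6 of 6 were higher (median 1.29), and with all 7 controls of day 60, 4 were.

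Of 36 chemokines, cytokines and receptors, 26 passed the filter on low counts, which a gene could pass through the KO libraries alone. Of these 26, 13 were higher and 4 lower (median 0.60). Cx3cl1, a membrane-bound chemokine, held 25.6, 20.8, 38.1 and 28.2 CPM in the KO libraries, against 8, 9.28 and 11.8 CPM in the controls (1.54 ± 0.21). Cxcl12, which keeps blood cells and vessels in place, held 112, 94.5, 90.6 and 89 CPM in the KO libraries, against 131, 142 and 209.7 CPM in the controls (-0.73 ± 0.16, and -0.38 and not called with total count scaling). Ccl2, the main ligand of CCR2, was not called (0.77 ± 0.51), and Il6 was at 0.288 CPM or less. Interferon genes depended on the controls used. Of 23 tested, 4 were higher and 1 lower (median 0.27), below the shares over all genes of 21.8% and 22.4%. Without KO library 8, 8 were higher, while against the 4 controls of 7 days 0 were higher and 10 lower (median -0.29). Isg15 and Ifit1 were not called (0.13 ± 0.29 and 0.27 ± 0.16).

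Vessel and other cell markers were read for the make-up of the tissue. Of 22 endothelial markers, 9 were lower and 0 higher (median -0.26, and 0.12 with total count scaling). Pecam1 (-0.12 ± 0.17) and Cdh5 (-0.12 ± 0.11), which define the endothelium, were not called. Kdr, the main receptor for vascular endothelial growth factor, held 72.7, 75.1, 62.5 and 70.8 CPM in the KO libraries, against 88.4, 119.9 and 130.2 CPM in the controls (-0.68 ± 0.13, and -0.32 and not called with total count scaling), and Apln, a peptide of growing vessels, 8.99, 8.02, 2.85 and 7.11 CPM in the KO libraries, against 16.5, 19.1 and 20.5 CPM in the controls (-1.48 ± 0.29). Of 15 smooth muscle and pericyte markers, 5 were higher and 4 lower (median -0.15, and 0.21 with total count scaling). Myh11 (-0.15 ± 0.11), Rgs5 (-0.31 ± 0.13) and Pdgfrb (0.02 ± 0.13), which define these cells, were not called, while Cnn1, a calponin, held 24.6, 23.2, 26.6 and 10.5 CPM in the KO libraries, against 4.14, 3.13 and 2.05 CPM in the controls (2.78 ± 0.35). Of 12 epicardial and mesothelial markers, 8 passed the filter on low counts, which a gene could pass through the KO libraries alone. Of these 8, 5 were higher and 0 lower. The summed level of the list was 53.9 to 66.5 CPM in the KO libraries, against 17.6 to 18.3 CPM in the controls. Krt18, which many epithelia and stressed cells also make, held 22.7 to 41.2 CPM of that sum in the KO libraries, against 0.476 to 0.698 CPM in the controls. The defining genes Wt1 (-0.36 ± 0.14), Upk3b (2.25 ± 0.94) and Msln (2.70 ± 1.03) were not called. Wt1 was nevertheless lower in each KO library than in any control, and was called lower with sex as a covariate (-0.39). Under several settings Upk3b and Msln were called higher. These included leaving out KO library 8 (2.64 and 3.08), the controls of 7 days (3.34 and 4.20) and all 7 controls of day 60 (2.79 and 3.39). Upk3b held 3.46, 1.25, 0.216 and 7.11 CPM in the KO libraries, against 0.698, 0.989 and 0.238 CPM in the controls. In this gene KO libraries 6, 7 and 9 were above all controls, and KO library 8 was below all of them. Adipocyte markers were called in 1 of 7 (Plin4, -1.14 ± 0.11), with Adipoq (0.31 ± 0.46) and Cidec (0.05 ± 0.45) not called. Of 9 Schwann cell markers, 2 were higher and 4 lower. Against the 4 controls of 7 days, 2 Schwann cell markers were higher and 0 lower. Of 15 endocardial, arterial and lymphatic markers, 6 were higher and 2 lower. The shares over all genes, to set beside each of these counts, were 21.8% higher and 22.4% lower. What part these cell markers have in the gene differences was not tested.

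**Figure D4:**
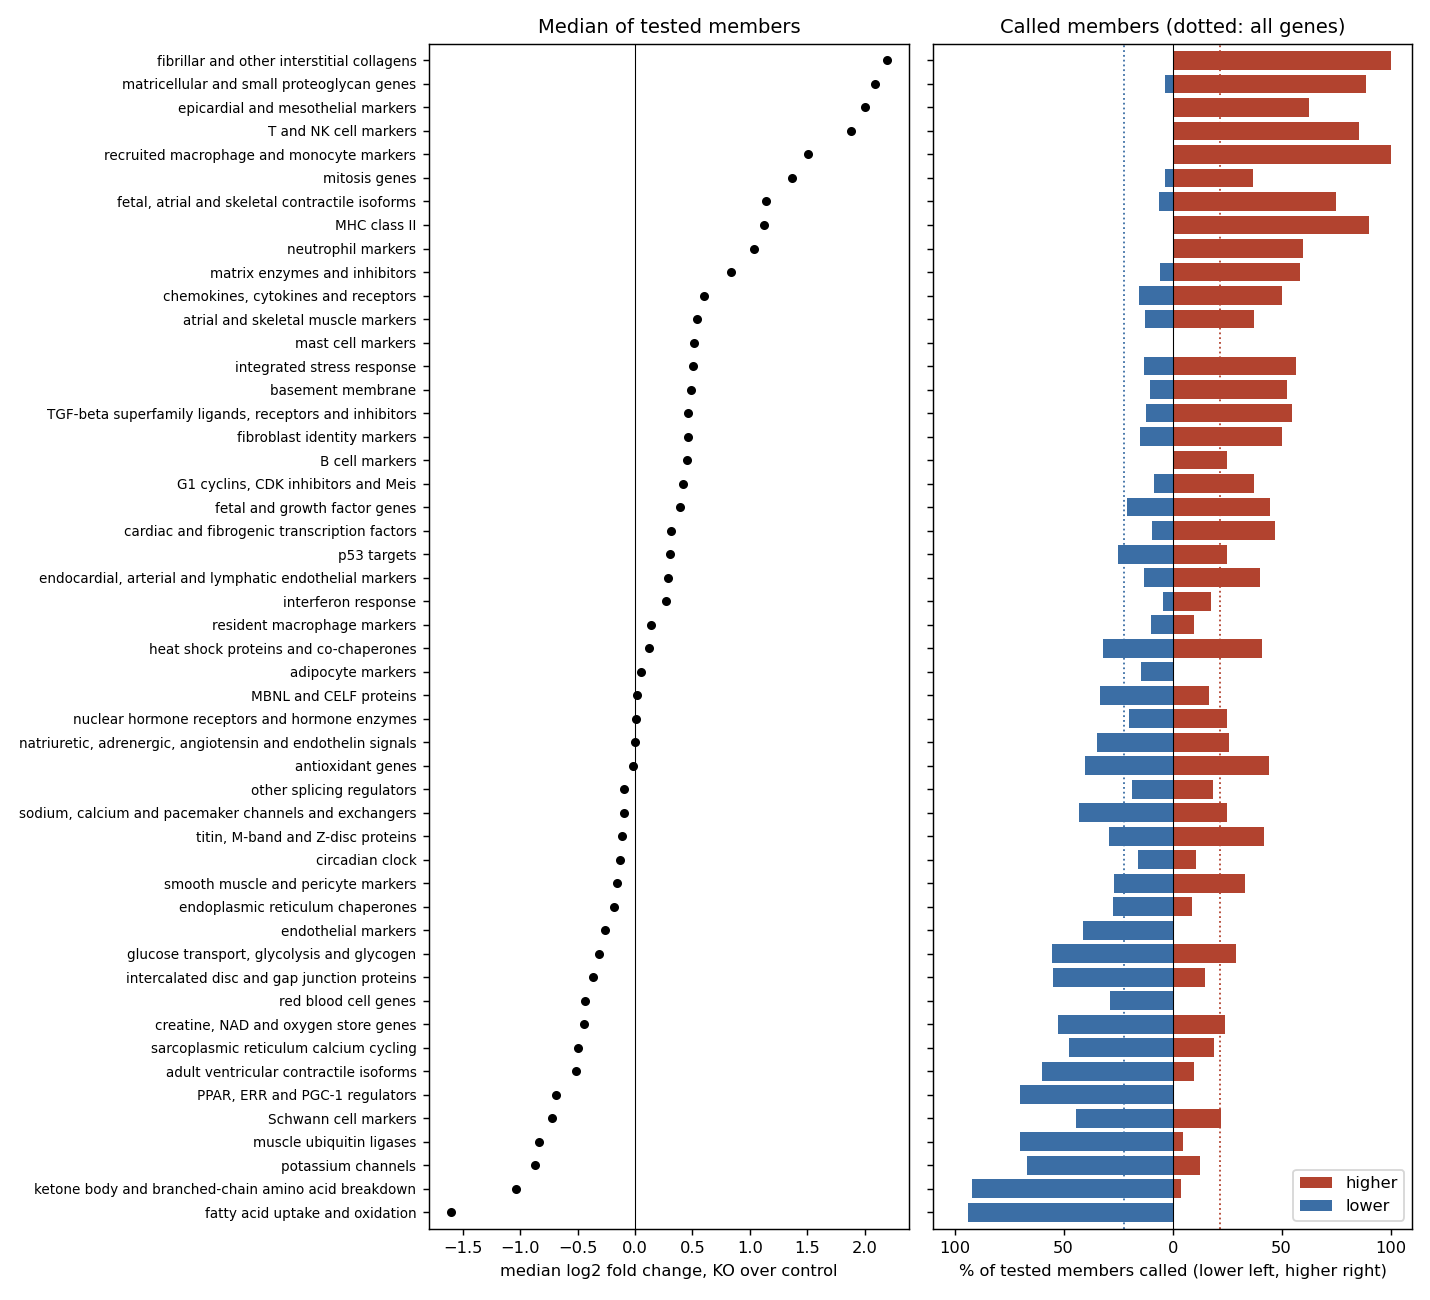
Median log2 fold change of the tested members of each of the 50 gene lists (left) and the percentage of tested members called higher (red, to the right) or lower (blue, to the left). Dotted lines give the shares over all genes, 21.8% higher and 22.4% lower. The median is 2.20 for interstitial collagens and -1.61 for fatty acid genes. Without KO library 8 the epicardial list has a higher median than the collagens, 2.64 against 2.20. With total count scaling the medians of 11 lists change sign, those of the splicing regulators, titin, intercalated disc, sodium and calcium channel, natriuretic, glucose, clock, endoplasmic reticulum, antioxidant, endothelial and smooth muscle lists.

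Growth factor and fetal genes rose in part. Of 29 tested, 13 were higher and 6 lower (median 0.39), beside shares over all genes of 21.8% and 22.4%. Nrg1, the neuregulin that drives heart muscle growth, held 5.85, 6.05, 4.39 and 5.76 CPM in the KO libraries, against 1.56, 0.824 and 0.572 CPM in the controls (2.49 ± 0.30), and Hbegf, another ligand of the EGF receptor family, 166, 126, 77.8 and 104 CPM in the KO libraries, against 27.1, 25.9 and 19 CPM in the controls (2.31 ± 0.25). H19, an imprinted fetal RNA, was not called (0.25 ± 0.13). Among 32 cardiac and fibrogenic transcription factors, 15 were higher and 3 lower, and 7 were lower without KO library 8. Sox9, a factor of cartilage and valve matrix, held 9.94, 4.88, 16.3 and 7.47 CPM in the KO libraries, against 1.77, 1.81 and 2.29 CPM in the controls (2.29 ± 0.39), and Runx1, a factor of stressed heart muscle, rose by 1.53 ± 0.26. The cardiac factors Gata4 (-0.00 ± 0.17) and Nkx2-5 (0.43 ± 0.11) stood close to the controls, the first not called and the second called at a small difference that was lost without control library 6 (0.34). Of 24 genes of the G1 phase, 9 were higher and 2 lower, and 15 were higher without KO library 8 and control library 7. Ccnd2, a cyclin of that phase, held 196, 259, 219 and 243 CPM in the KO libraries, against 112, 104 and 133 CPM in the controls (0.98 ± 0.12), and Myc rose by 1.15 ± 0.18.

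Mitosis genes were high in 3 of the 4 KO libraries. Mki67, a marker of cycling cells, held 18.9, 15, 2.92 and 27.6 CPM in the KO libraries, against 4.94, 5.05 and 9.29 CPM in the controls. KO libraries 6, 7 and 9 were above all controls and KO library 8 below all of them, and the gene was not called (1.31 ± 0.57, adjusted p = 0.087). Ccnb1, the cyclin of mitosis, held 2.67, 2.57, 0.792 and 6.38 CPM in the KO libraries, against 0.806, 0.824 and 0.81 CPM in the controls (1.93 ± 0.60, called, with overlap, and not called without control library 5, 6 or 7, at 1.92 to 1.93, or by limma-voom, at 1.54). Of 30 mitosis genes, 11 were called higher and 1 lower (median 1.36), beside shares over all genes of 21.8% and 22.4%. Without KO library 8, 28 were higher (median 1.68). Without KO library 6 or 9 there were 6, without control library 5 there were 3, without control library 6 there were 2, and limma-voom called 0. In contrast, DESeq2 called 21 higher, and edgeR 27 without the low-count filter and 24 with all 27 libraries in one fit. There were 26 with total count scaling, 21 with a replicate block and 26 with all 7 controls of day 60. The count thus depends on single libraries, the tool, the filter and the controls. Cenpf, a centromere protein, held 6.28, 7.67, 2.23 and 9.8 CPM in the KO libraries, against 21.2, 16.6 and 15.7 CPM in the controls and was lower (-1.46 ± 0.35), against the direction of the list.

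The clock genes set KO library 8 and control library 7 apart from the other 5. Dbp, an output gene of the clock, held 48.4, 47, 146 and 30.5 CPM in the KO libraries, against 42.2, 46.2 and 149 CPM in the controls. Arntl, the core clock factor, held 7.2, 6.16, 1.3 and 14.5 CPM in the KO libraries, against 10.4, 7.58 and 1.33 CPM in the controls. In both, KO library 8 and control library 7 were alike and unlike the rest of their groups, and neither gene was called. The hour at which tissue was taken is not given in the labels. KO libraries 8 and 9 were female by their counts, and control library 7 was the only female control. With sex as a covariate, 2 clock genes were higher and 3 lower (median -0.18). Of 19 clock genes, 2 were higher and 3 lower, below the share over all genes in both directions (21.8% and 22.4%). Their median was -0.13, and 0.23 with total count scaling, and 0 were higher without control library 6. Over all genes tested, KO library 8 stood apart from the other 3 KO libraries in 421 genes (2.81%), against 108 in KO library 6, 133 in KO library 7 and 141 in KO library 9. A single KO library stood apart in 803 genes (5.36%), where chance gives about 5% of groups. Without KO library 8 and control library 7 together, 7208 genes were called, against 6623 with them, and 6139 of the calls were shared.

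**Figure D5:**
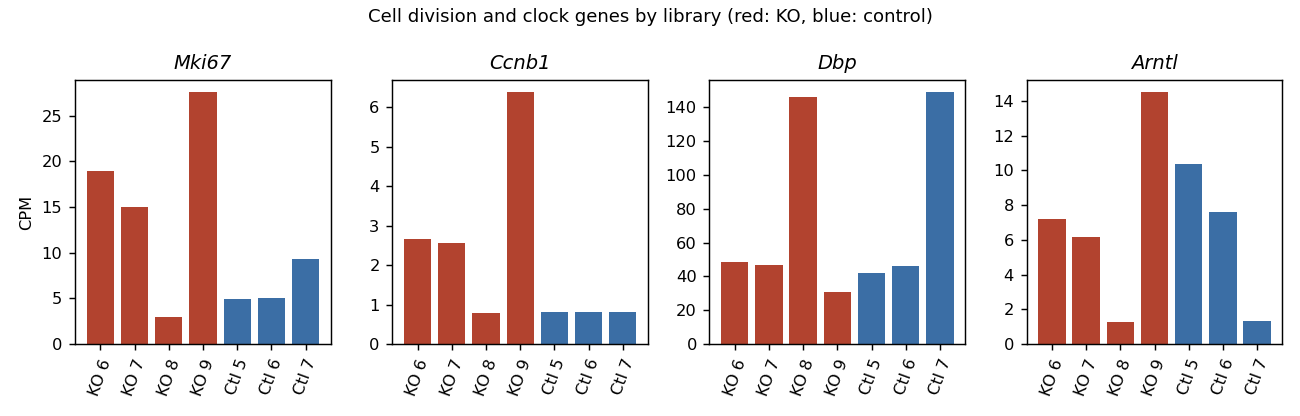
CPM of 2 mitosis genes (Mki67, Ccnb1) and 2 clock genes (Dbp, Arntl) in each library, with the 4 KO libraries (red) to the left of the 3 controls (blue), as bars from 0. KO library 8 has the lowest Mki67 and Ccnb1 of all 7 libraries, and it shares high Dbp and low Arntl with control library 7.

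Whether these differences had changed since 7 days after knockout was tested in the 16 libraries of postnatal day 60. KO library 2, of the 7-day group, held both Xist counts (5268) and Y-linked counts (3095) and was kept in the test. The reason was not tested. For a difference of the response between 14 and 7 days, edgeR called 0 (0%) of 15951 genes, and the smallest adjusted p was 0.0693. At an unadjusted p under 0.05 there were 1662 genes, and of the other tools limma-voom called 0 and DESeq2 148. Dio2 had a response larger at 14 days by 1.68 ± 0.45 on the log2 scale (adjusted p = 0.21), and Timp1 a response smaller at 14 days by a difference of -2.37 ± 0.79 (adjusted p = 0.29). Neither passed the test, which does not show that the responses were alike.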

How the data were processed

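Whole ventricle RNA was isolated with TRIzol and a Qiagen RNeasy kit and sequenced by BGI on its DNBseq platform, per the labels' protocols. The table deposited by the authors holds counts of reads per gene, as whole numbers with unequal totals. STAR, featureCounts, DESeq2, Salmon and the builds GRCm38 and mm10 appear without role or version per the submitters' processing notes. The annotation release and strand setting are not given in the sources used here, so a gene and its antisense partner cannot be told apart and near-identical copies may share reads. Symbols and positions came from GENCODE M21, which held 55227 of 55487 identifiers. Promoter windows came from RefSeq on GRCm38.p6.

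The 7 libraries were fitted alone with edgeR 4.0.16 in R 4.3.3 (filterByExpr, TMM, quasi-likelihood F test). In every list, a gene could pass the filter through the libraries of 1 group alone. P-values were adjusted by Benjamini-Hochberg over all genes tested, with calls made below an adjusted p of 0.05. Log2 fold changes are KO over control ± SE. On data simulated from these libraries, with 14976 genes of which 200 changed, the fit recovered 73% of 2-fold and 94% of 4-fold changes with 10 false calls. The simulated rises and falls were balanced, and no shift of scale was put between the groups. In the data 44.2% of genes were called and the scaling mattered, so these figures do not carry over to them. Single values were compared with exact permutation tests in SciPy 1.17.1. With sampling noise exceeded in every pair of replicates, each library counted as 1 sample.

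The members and the 50 gene lists were chosen with earlier results of these data known. Genes named are the MBNL genes, Esr1, the 8 largest rises and 8 largest falls among called genes of at least 5 CPM without overlap, fixed key genes of each list whatever their values, and up to 2 members of each list with the largest change under those conditions. The alternatives were RLE and total count scaling, mitochondrially encoded genes left out, no low-count filter, DESeq2 1.42.0, limma-voom (limma 3.58.1), all 27 libraries in one fit, the controls of 7 days, sex as a covariate, a replicate block and each library left out. Leaving out KO library 8 with control library 7, and using all 7 controls of postnatal day 60, were added after the data were seen. A few of the named genes are not reported here.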

Additional observations from a re-analysis of the deposited data

Results flagged for a closer look

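In 17 of 225 per-library values examined, a single KO library lay far from the other 3 by Dixon's test at the 95% level, which chance gives in about 1 in 20 groups. The library was KO library 8 in 14 genes, KO library 6 in 2 and KO library 9 in 1.

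KO library 8 was the lowest of the KO libraries for 6 genes. Cxcr6 was at 16.5 CPM, against 27.8 to 30.3 CPM in the other 3, and Kcnd2 at 3.53 CPM, against 7.51 to 8.39 CPM. Nrg1 was at 4.39 CPM, against 5.76 to 6.05 CPM, Cthrc1 at 12.2 CPM, against 14.9 to 15.5 CPM, Mfap5 at 236 CPM, against 284 to 289 CPM, and the endothelial cadherin Cdh5 at 167 CPM, against 216 to 227 CPM. The gene sits on the same side of the controls in all 4 KO libraries for Cxcr6, Kcnd2, Nrg1, Cthrc1 and Mfap5. For Cxcr6, Cthrc1 and Mfap5 this is fixed by their choice as genes without overlap.

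KO library 8 was the highest for 8 genes. Among muscle genes, Ryr2 was at 355 CPM, against 202 to 216 CPM in the other 3, Gja1 at 174 CPM, against 106 to 113 CPM, and Myl7 at 41.2 CPM, against 13 to 15.4 CPM. The cardiac transcription factor Tbx20 was at 127 CPM, against 80.8 to 84.1 CPM, and the pericyte receptor Pdgfrb at 85.1 CPM, against 75.2 to 75.5 CPM. Phlda3 was at 51.8 CPM, against 32.1 to 34.2 CPM, hexokinase Hk1 at 391 CPM, against 291 to 306 CPM, and Ubxn10 at 2.31 CPM, against 0.378 to 0.547 CPM.

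KO library 6 was the highest for the small heat shock proteins Hspb1 at 951 CPM, against 507 to 555 CPM, and Cryab at 2.77e+03 CPM, against 2.19e+03 to 2.26e+03 CPM. KO library 9 was the lowest for Cnn1 at 10.5 CPM, against 23.2 to 26.6 CPM. What sets these libraries apart was not tested.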

How the results depend on the processing

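Scaling had the largest effect. With total count scaling 7288 genes were called higher and 1610 lower, and the log2 fold change of 9 named genes called in either fit changed sign, to 0.34 for Efnb2, 0.26 for Celf2, 0.24 for Pkp2, 0.24 for Xbp1, 0.16 for Pkm, 0.11 for Stard10, 0.092 for Bpgm, 0.039 for Cat and 0.034 for Mbnl1, as did those of 14 named genes called in neither. This follows from the scale, under which the median gene rose by 0.39. Against the controls of 7 days, Oasl2 (-0.14) and Isg15 (-0.69), called in either fit, and 16 named genes called in neither changed sign, the mitochondrial share differed by -8.43 points, and the isoform ratios by 3.23 (Myh7 over Myh6), 6.27 (Tnni1 over Tnni3) and 3.17 (Acta1 over Actc1), with exact permutation p = 0.0286 each. Without KO library 8 and control library 7 Myl7 turned to -0.76. The cause of these shifts was not tested. For the difference between 14 and 7 days, DESeq2 called 148 genes and edgeR without the low-count filter 13. Leaving out 1 library gave 5132 to 7256 genes called, 2453 to 3596 higher, 2679 to 3660 lower and 2156 to 2518 at least 2-fold different. It gave a mitochondrial share difference of -10.2 to -8.46 points and isoform ratio differences of 2.32 to 2.65, 5.58 to 6.79, 3.28 to 3.73 and 0.31 to 1.05 (Myl7 over Myl2), and 0 genes for the difference between the times. Of 173 called named genes, 150 stayed called in the same direction with each library left out and 138 under all settings tried. Libraries 6 and 7 carry the same numbers in both groups, but their deviations correlated at 0.15 and -0.35, so the numbers were not taken to pair the libraries. A fit with that replicate block called 6163 genes, and Mbnl1 was not among them (-0.19). The other settings called 6463 (limma-voom) to 8592 (all 7 controls of day 60) genes. With 4 against 3 libraries and gene totals only, small differences and changes of splicing are beyond these data.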

Other observations

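Further genes stood out after their values were seen, so they are given as a description. The microRNA gene Mir208b, which lies within Myh7, held 2.23, 1.89, 2.74 and 1.42 CPM in the KO libraries, against 5.42, 8.52 and 13.2 CPM in the controls (log2 fold change -2.13 ± 0.30), while Myh7 rose by 1.76 ± 0.15. Mhrt, an RNA antisense to the myosin locus, differed by -1.01 ± 0.21, and with no strand setting given these overlapping reads are uncertain. Rpl3l, the form of ribosomal protein L3 of adult striated muscle, held 44.6, 37, 30.3 and 33.7 CPM in the KO libraries, against 198, 253 and 206 CPM in the controls (-2.59 ± 0.14). Its general counterpart Rpl3 rose by 0.95 ± 0.14, with copies elsewhere in the genome that may share reads.

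Other genes with large rises were Kcnj14, an inward rectifier potassium channel (log2 fold change 5.29), and Cd24a, a surface protein of immature cells (4.20). Nox4, an oxidase that makes hydrogen peroxide, rose by 3.83, and Serpina3n, an acute phase protease inhibitor, by 3.43. Star, which carries cholesterol into mitochondria, rose by 3.54, Sfrp2, a Wnt inhibitor, by 3.24 and Uchl1, a neuronal deubiquitinase, by 3.18. Large falls were seen in Mylk4, a muscle myosin kinase (-3.35), Lgals4, a galectin (-3.19), and Fbp2, the muscle fructose bisphosphatase (-3.04). Ech1, an enzyme of unsaturated fatty acid oxidation (-2.45), and Fndc5, the precursor of irisin (-2.09), were lower as well. All of these passed the edgeR test at an adjusted p under 0.05.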
